A study of Danio rerio with 2 samples.

Results

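Toll-like receptors and NOD1 belong to separate families of pattern recognition receptors. In mammals both lead to the transcription factor NF-κB. A Toll-like receptor that has bound its ligand recruits adaptor proteins through its intracellular TIR domain, the adaptors bring in kinases of the IRAK family, and the signal reaches the IκB kinase complex. This complex phosphorylates IκB, the inhibitor that keeps NF-κB in the cytoplasm, and the degradation of IκB lets NF-κB enter the nucleus. NOD1, an intracellular sensor of bacterial peptidoglycan, joins the same route in mammals at the IκB kinase complex. Larval zebrafish rely on such innate receptors before adaptive immunity is mature.

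The 5 genes described here are the Toll-like receptor tlr4bb, the adaptor tirap, the kinases irak1 and chuk, and the inhibitor nfkbiab, 1 or more for each step of that route. They were taken by symbol from the 84 pathway genes of a commercial real-time PCR array for PI3K-Akt signalling, which with 5 reference genes makes 89 assays. Whole larvae at 10 days post fertilization (dpf) were compared between wild-type (WT) zebrafish, of the AB/TU background in the study's methods, and NOD1-deficient zebrafish (NOD1-1IS-/-), homozygous for a 1-base insertion in NOD1 that was made with Cas9 and a guide RNA. No infection or other treatment is named for either group. Each of the 2 genotypes had 3 biological replicates, each a pool of 200 to 250 larvae on its own array, and the mutants are 1 line. Because RNA came from whole larvae, fewer cells of a type and less RNA per cell cannot be told apart. No assay for nod1 was among the 89, so the genotype of a pool could not be read from the array.

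Each well yields a threshold cycle (Ct), the number of PCR cycles needed to bring the fluorescence to a set line, and 1 cycle less means about 2 times the starting template. The 5 genes were detected in 6 of 6 arrays. Levels are given as delta Ct, which subtracts from a gene's Ct the average of the reference genes hprt1, nono and rpl13a measured on that array, so that a higher delta Ct means less transcript. A log2 change is the WT mean of delta Ct minus the NOD1-deficient mean, and is negative where NOD1-deficient larvae had less. Before any scaling, these 3 reference genes were on average more abundant in the NOD1-deficient pools, by a log2 difference of 0.30 (p = 0.1 in a two-sided exact permutation test, which cannot go lower with 3 arrays against 3). Over the 84 genes the log2 change had a median of -0.11.

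The first question was how abundant the transcripts of the route are in WT larvae. The inhibitor was the most abundant and the receptor the least. The inhibitor nfkbiab, which encodes an alpha form of IκB and is in mammals itself switched on by NF-κB, had the lowest delta Ct of the 5 genes, -0.55 ± 0.170 (SD, n = 3), and ranked 4 of 84 by level. The kinase chuk, a catalytic subunit of the IκB kinase complex (IKK alpha), followed at 2.51 ± 0.118 (SD, n = 3) and rank 34.

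The kinase irak1, which is recruited to the adaptor complex of the active receptor, had a delta Ct of 6.21 ± 0.189 (SD, n = 3) and rank 72. The adaptor tirap, which in mammals links TLR2 and TLR4 to MyD88, stood at 8.37 ± 0.138 (SD, n = 3) and rank 79. The receptor tlr4bb was the rarest of the 5, with a delta Ct of 11.78 ± 0.195 (SD, n = 3) and rank 83 of 84. The steps between neighbours in this order were 3.07, 3.70, 2.17 and 3.41 cycles, and in none of them did the WT arrays of neighbouring genes overlap. The order was the same in NOD1-deficient larvae. Levels of different assays also depend on the efficiency of their primers, which was not used here, so no test was made between assays.

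**Figure D1:**
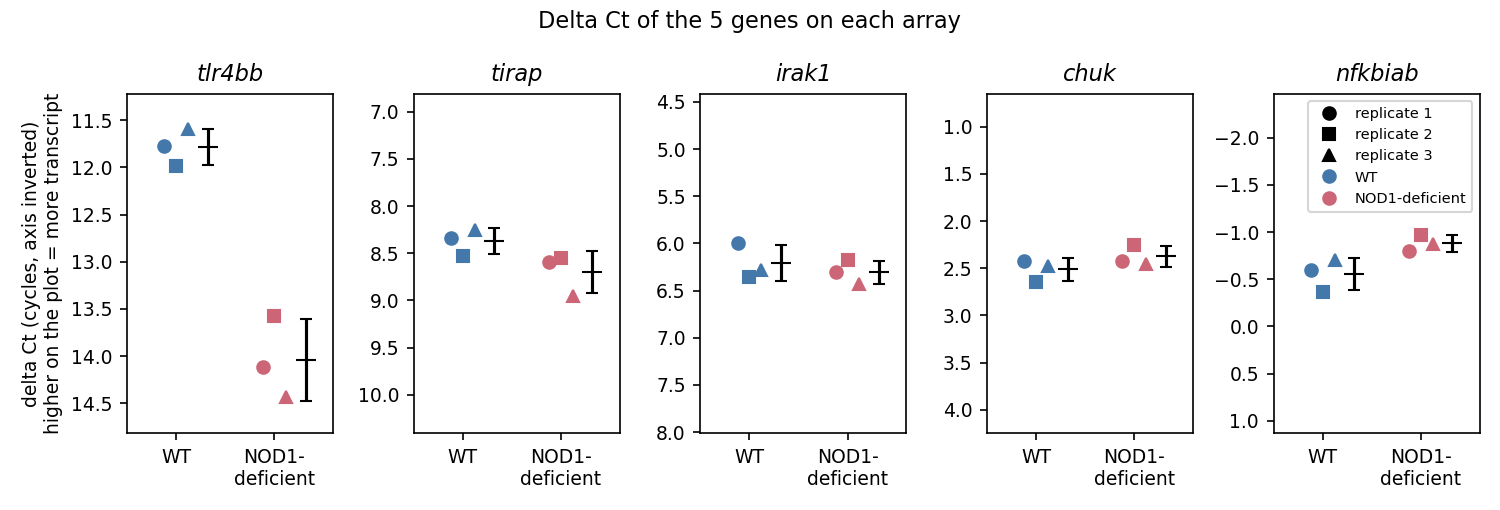
Delta Ct in cycles (axis inverted, so that more transcript is higher) of tlr4bb, tirap, irak1, chuk and nfkbiab in WT (blue) and NOD1-deficient (red) larvae, with 1 symbol per array and the mean and SD of each group in black. Every panel spans the same number of cycles, and tlr4bb is the gene whose groups lie far apart, between 11.60 and 11.99 in WT and between 13.57 and 14.44 in NOD1-deficient larvae.

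The next question was which steps of the route differ in NOD1-deficient larvae. Of the 5 genes, tlr4bb was lower and the other 4 did not pass the test, which was fitted over all 84 genes (limma, two-sided, Benjamini-Hochberg adjusted p under 0.05). Over the 84 genes 19.0% passed in either direction and 15.5% as lower, so 1 of 5 is close to the background. The 5 genes had a median log2 change of -0.10, beside -0.11 for all 84.

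The receptor gene tlr4bb encodes 1 of the zebrafish proteins related to TLR4, which in mammals is the sensor of bacterial lipopolysaccharide. The ligand of the zebrafish protein, and whether it activates this route, were not tested here. Its delta Ct was 11.77, 11.99 and 11.60 in WT replicates 1, 2 and 3, and 14.11, 13.57 and 14.44 in NOD1-deficient replicates 1, 2 and 3. All NOD1-deficient arrays were above all WT arrays, with NOD1-deficient replicate 2 the nearest to them and replicate 3 the farthest. This is a log2 change of -2.26 ± 0.158 (SE), a level 4.78-fold lower, with a 95% confidence interval of -2.57 to -1.95 and an adjusted p of 1.57e-34 in limma. In limma a single SD served for every gene, and tlr4bb had the second largest spread of its own among the 84 genes. From its own replicates the SE was 0.276, the interval ran from -3.02 to -1.49 and the adjusted p was 0.0204 (linear model with a separate variance for each gene). The exact permutation p was 0.1. The study itself named tlr4bb from these arrays, so the size of its change is not independent evidence that the receptor stands out.

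The change of tlr4bb was the largest of the 84 genes in absolute size. The assay was also the second latest, reaching its threshold on average at cycle 31.6 in WT and 33.5 in NOD1-deficient pools, and only ptk2ba was detected later. Of the 6 genes with a mean Ct over 28 (tlr4bb, ptk2ba, faslg, eif4e1b, igf1 and tirap), 4 had a log2 change below 0, as had 59 of all 84 genes. The third latest of all, faslg, was higher by 0.62 (adjusted p 0.00093 in limma). The log2 change of ptk2ba was -0.06, with an SE of 0.624 from its own replicates. The part of late detection in the value of tlr4bb was not tested.

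**Figure D2:**
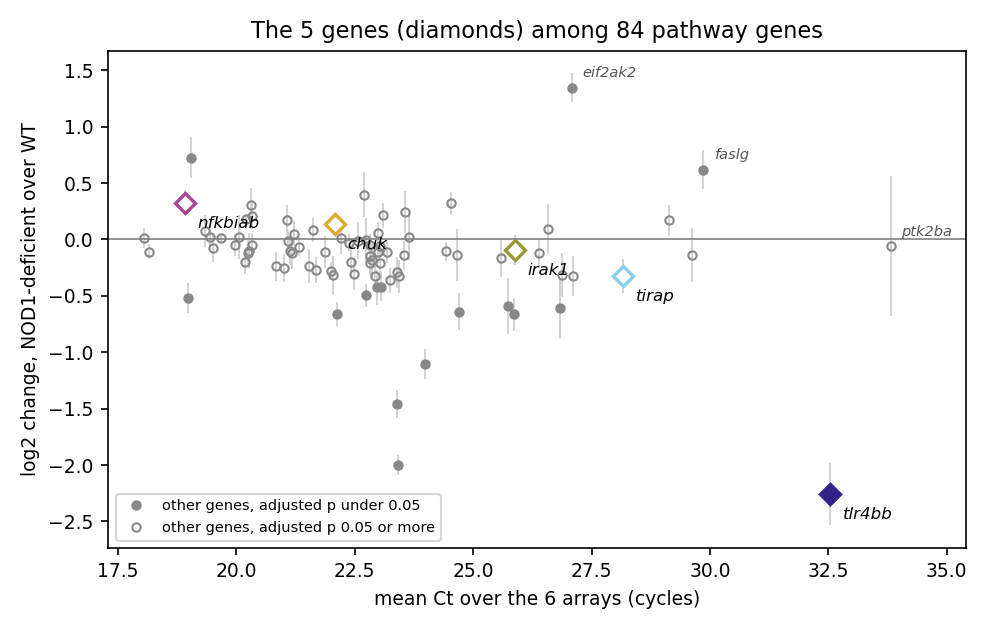
Log2 change of NOD1-deficient over WT larvae against the mean Ct over the 6 arrays for 84 pathway genes, with bars of 1 SE from a gene's own replicates. Diamonds are the 5 genes of the route, and a filled symbol has an adjusted p under 0.05 in limma. The diamond of tlr4bb is the lowest point at -2.26, while the other 4 diamonds lie between -0.33 and 0.32.

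The adaptor tirap had a delta Ct of 8.34, 8.53 and 8.26 in WT replicates 1, 2 and 3, and 8.60, 8.56 and 8.96 in NOD1-deficient replicates. The groups did not overlap, but the nearest arrays were 8.53 and 8.56, and NOD1-deficient replicate 3 was farther out than the others. The log2 change was -0.33 (95% confidence interval -0.64 to -0.02, limma adjusted p 0.149). From its own replicates the interval of tirap ran from -0.75 to 0.09, and the adjusted p was 0.301 (linear model with a separate variance for each gene).

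The kinase irak1 had WT delta Ct values of 5.99, 6.35 and 6.28 and NOD1-deficient values of 6.31, 6.18 and 6.43, for replicates 1, 2 and 3. The groups overlapped, with WT replicate 1 the array apart from the rest. The log2 change was -0.10 (95% confidence interval -0.41 to 0.21, limma adjusted p 0.743). The change was near the median of all genes, from which it differed by 0.02.

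The kinase chuk had WT delta Ct values of 2.42, 2.65 and 2.47 and NOD1-deficient values of 2.42, 2.25 and 2.45, for replicates 1, 2 and 3. The groups overlapped. The log2 change was 0.14 (95% confidence interval -0.17 to 0.45, limma adjusted p 0.634).

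The inhibitor nfkbiab had WT delta Ct values of -0.60, -0.37 and -0.70 and NOD1-deficient values of -0.80, -0.97 and -0.87, for replicates 1, 2 and 3. All NOD1-deficient arrays were below the WT arrays, that is, on the side of more transcript, and WT replicate 3 was the nearest to them. The log2 change was 0.32 (95% confidence interval 0.01 to 0.64), with an adjusted p of 0.149 in limma and 0.197 with a separate variance for each gene. Of the 5 genes, 3 (tlr4bb, tirap and nfkbiab) had groups that did not overlap, as had 31.0% of the 84 genes. The same 3 genes had an unadjusted p under 0.05 in limma, as had 26 of the 84 genes (31.0%).

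As measured, before scaling, the log2 difference of NOD1-deficient from WT larvae was -1.96 for tlr4bb, -0.03 for tirap, 0.20 for irak1, 0.43 for chuk and 0.62 for nfkbiab. On that scale the positive PCR control wells differed by 0.15. The groups of unscaled Ct overlapped for tirap (exact permutation p = 1.0) and irak1 (0.2) and did not for tlr4bb, chuk and nfkbiab (0.1 each), and 50.0% of the 84 genes did not overlap on that scale.

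The log2 changes of the 4 genes that did not pass depended on how the arrays were scaled. Another scaling adds a constant to all genes of an array alike, so a call gained under it is read beside the share of the 84 genes that passed as higher under the same scaling. That share was 83.3% with acta1b alone, 44.0% with b2m alone, 21.4% with the median Ct of the pathway genes and 19.0% with all 5 reference genes. It was 8.33% with hprt1 alone and 8.33% with the 4 reference genes other than acta1b, 5.95% with the positive PCR control wells, 3.57% with nono alone and 3.57% with rpl13a alone. Under 9 other scalings tlr4bb was lower with an adjusted p under 0.05 in 9 of 9, from -2.42 with nono alone to -1.35 with acta1b alone. The gene nfkbiab was above 0 in 9 of 9, from 0.16 to 1.24, and passed as higher in 7, all but nono alone and rpl13a alone. It was thus among 7 genes that passed as higher with hprt1 alone, 5 with the positive PCR control wells and 70 with acta1b alone. With limma's trend and robust options, where 4.76% of the genes passed as higher, its adjusted p was 0.0435. The 9 scalings use the same arrays and several share reference genes, so the counts are not of independent checks. Scaled to hprt1, nono and rpl13a, acta1b and b2m were themselves rarer in NOD1-deficient larvae. Their mean delta Ct was -3.06 and 3.25 in WT and -2.15 and 3.75 in NOD1-deficient larvae.

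The value of chuk was above 0 in 8 of 9 scalings and passed as higher in 4, those with the 4 highest shares above, and it turned to -0.03 with nono alone. That of irak1 was above 0 in 7 of 9, those in which the median of the 84 genes was also above 0. The value of irak1 passed as higher in 2, with acta1b alone and b2m alone, where 70 and 37 of the 84 genes did. That of tirap was below 0 in 7 of 9, passed as lower with nono alone, where 24 of the 84 genes did, and as higher with acta1b alone. The order of the 5 changes, from tlr4bb through tirap, irak1 and chuk to nfkbiab, cannot move with the scaling.

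**Figure D3:**
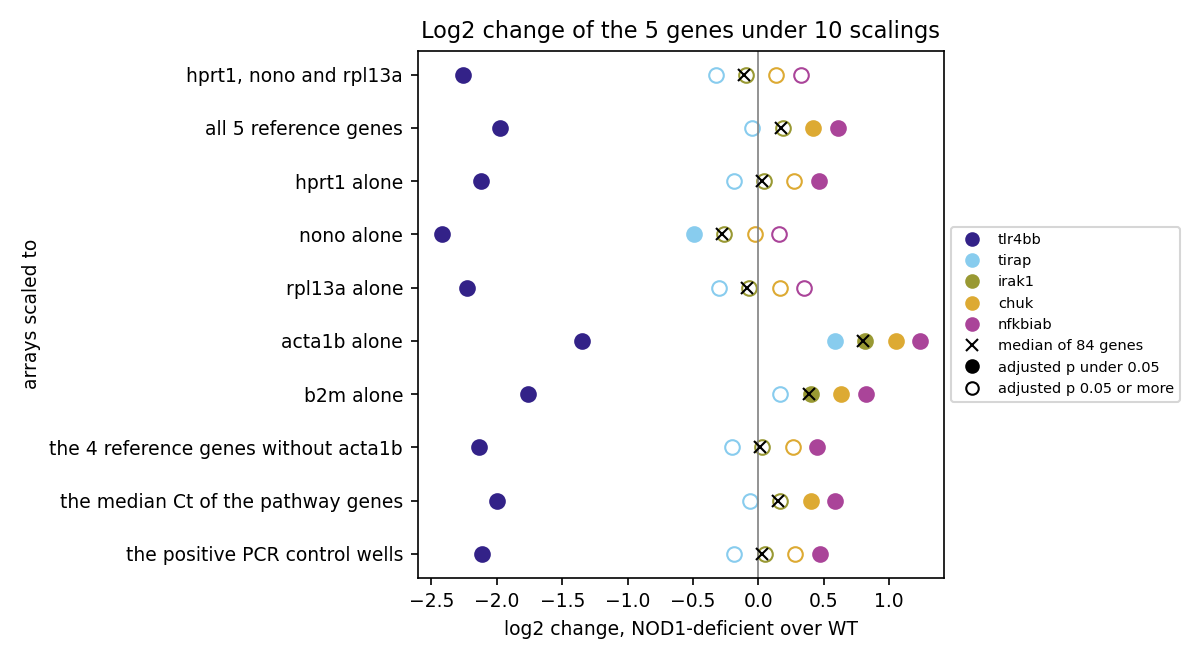
Log2 change of NOD1-deficient over WT larvae (x axis) for the 5 genes when the arrays were scaled to hprt1, nono and rpl13a (top line) or in 9 other ways (y axis). A filled circle has an adjusted p under 0.05 in limma and a cross is the median of 84 genes, which ran from -0.28 with nono alone to 0.80 with acta1b alone, while tlr4bb stayed between -2.42 and -1.35.

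To leave the reference genes out, the Ct of 2 genes on the same array were subtracted from each other. By construction the difference of a pair between the groups equals the difference of its 2 log2 changes given above. What the pairs add is the spread over the arrays. The receptor became rarer relative to each of the other 4 genes. Their place downstream of the receptor is taken from mammals and was not tested here. The Ct of tlr4bb minus that of tirap was 3.43, 3.46 and 3.34 cycles in WT replicates 1, 2 and 3, and 5.52, 5.02 and 5.48 in NOD1-deficient replicates. The difference between the groups was 1.93 ± 0.165 (SE), or a ratio of receptor to adaptor that was 3.81-fold lower in NOD1-deficient larvae.

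Against irak1 the Ct difference of tlr4bb grew by 2.16 ± 0.227 cycles (SE) and against chuk by 2.40 ± 0.205 (SE). Against nfkbiab it was 12.37, 12.35 and 12.30 cycles in WT and 14.91, 14.54 and 15.31 in NOD1-deficient replicates 1, 2 and 3, which is 2.58 ± 0.223 cycles more (SE) and a ratio of receptor to inhibitor 5.99-fold lower. In the 4 pairs the groups did not overlap, and the exact permutation p was 0.1 for each (0.111 after Benjamini-Hochberg adjustment over 10 pairs of the 5 genes), a design that cannot reach 0.05. The spread among the NOD1-deficient arrays was larger than among the WT arrays in each of the 4 pairs, with an SD of 0.385 against 0.0378 cycles in the pair of tlr4bb and nfkbiab.

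**Figure D4:**
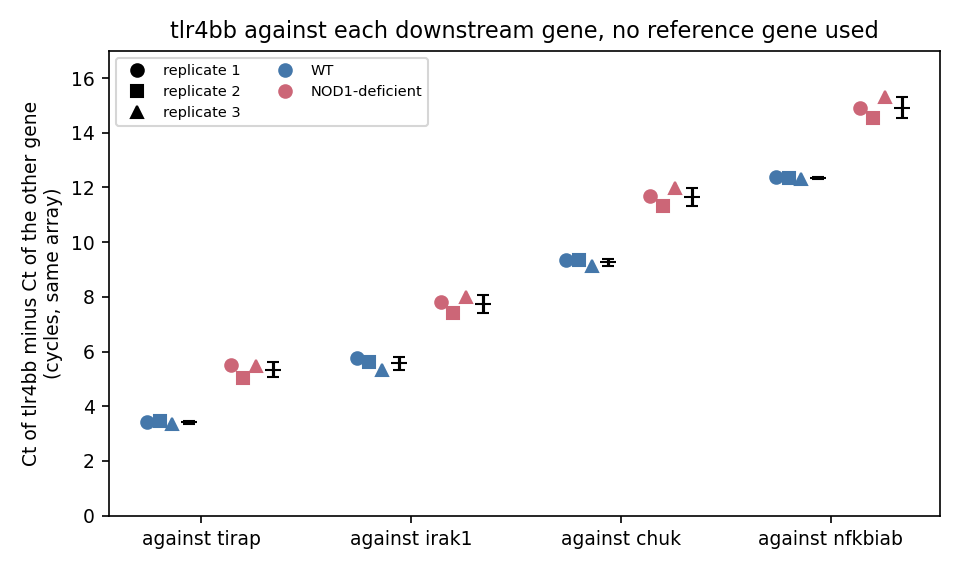
Ct of tlr4bb minus the Ct of tirap, irak1, chuk or nfkbiab on the same array, in cycles, for WT (blue) and NOD1-deficient (red) larvae, with 1 symbol per array and the mean and SD of each group in black. A higher value means less receptor transcript for the same amount of the other transcript, and the red points lie above the blue points in all 4 pairs, by 1.93 to 2.58 cycles.

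Among the 6 pairs without the receptor the groups did not overlap in 5, although the differences were small. The Ct of tirap minus that of nfkbiab was 8.93, 8.90 and 8.96 cycles in WT and 9.39, 9.52 and 9.83 in NOD1-deficient replicates 1, 2 and 3. All NOD1-deficient arrays were above all WT arrays, and the difference of 0.65 ± 0.131 cycles (SE) was the largest of the 6. The others were 0.47 for tirap and chuk, 0.42 for irak1 and nfkbiab, 0.23 for irak1 and chuk, and 0.19 for chuk and nfkbiab, each with an exact permutation p of 0.1 and an adjusted p of 0.111. The pair of tirap and irak1 overlapped, with a difference of 0.23 (exact permutation p = 0.2). Over all 3486 pairs of the 84 genes the groups did not overlap in 43.4%, and 9 of the 10 pairs of the route were of that kind, which share genes and arrays and are not independent. Paired with each of the other 83 genes of the array, nfkbiab did not overlap in 62, chuk in 53, tirap in 36 and irak1 in 22. Lack of overlap was thus frequent for nfkbiab and chuk with genes outside the route too.

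For tlr4bb paired with each of the other 83 genes, the groups did not overlap in 82. The 1 exception was pdk1, annotated on the array as a pyruvate dehydrogenase kinase, which was itself lower in NOD1-deficient larvae. Its adjusted p was 1.30e-28 in limma and 0.00186 with a separate variance for each gene. The Ct of tlr4bb was later than that of pdk1 by 8.99 ± 0.162 cycles in WT and 9.25 ± 0.516 in mutant arrays (SD, n = 3 each, exact permutation p = 0.5). The gene pdk1 was also the gene with the profile most like that of tlr4bb over the 6 arrays, with a root mean square difference of 0.34 on the log2 scale after each gene was centred on its own mean. Next came pik3r2, a regulatory subunit of PI3-kinase, at 0.45 and itgb1b, an integrin beta chain, at 0.61. The log2 changes of pdk1, pik3r2 and itgb1b were themselves large, at -2.00, -1.46 and -1.10. Both the pairs and the profiles hold the difference between the groups. The group means of the pairs only restate the change of tlr4bb against that of its partner, and the profiles restate it in part. The nearest profiles to the other genes were closer: srfa to tirap (0.07), ilk to irak1 (0.06), hspb1 to chuk (0.05) and jun to nfkbiab (0.06).

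Another 3 genes of the route were on the array, and 0 of them passed in limma, beside 16 of all 84 genes. With an unadjusted p under 0.05 the count was 0 beside 26 of 84. With a separate variance for each gene it was 0 beside 6 of 84. The adaptor myd88, to which most Toll-like receptors of mammals couple, had WT delta Ct values of 2.12, 2.43 and 2.03 and NOD1-deficient values of 2.27, 2.21 and 2.45, for replicates 1, 2 and 3. The groups overlapped, and the log2 change was -0.11 (95% confidence interval -0.42 to 0.20). The level of myd88 lay close to that of chuk, and the WT arrays of the pair overlapped.

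The gene nfkb1 encodes the precursor of the p50 subunit of NF-κB. Its assay, annotated on the array as NF-kB1 precursor protein, was the only route assay without a match in RefSeq. The log2 change of nfkb1 was -0.12 (95% confidence interval -0.43 to 0.19), with WT arrays at a delta Ct of 6.70 ± 0.206 and mutant arrays at 6.81 ± 0.103 (SD, n = 3 each). The gene tollip encodes a protein that in mammals restrains IRAK1 and so dampens Toll-like receptor signalling. Its log2 change was -0.02 (95% confidence interval -0.33 to 0.29), with WT arrays at a delta Ct of 1.46 ± 0.161 and mutant arrays at 1.48 ± 0.0794 (SD, n = 3 each). For the 3 genes the replicates of the 2 groups overlapped, and their median log2 change of -0.11 equalled that of all 84 genes to 2 decimals. Their signs too moved with the scaling: tollip was above 0 in 8 of 9 scalings and passed as higher in 2, while myd88 and nfkb1 were each above 0 in 7 and passed as higher in 1. The median of the 84 genes was above 0 in the same 7.

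Toll-like receptors also feed the MAP kinases and the transcription factors of the AP-1 type, and act beside PI3-kinase. Of 9 genes of the MAP kinase and AP-1 branch, 1 was higher (fos, log2 change 0.73, adjusted p 8.93e-05 in limma), 1 was lower (elk1, -0.66, adjusted p 0.000369) and 7 did not pass. That is 2 of 9, near the 19.0% of all 84 genes. The gene elk1 did not pass with acta1b alone (0.25) or b2m alone (-0.17, adjusted p 0.385), and with a separate variance for each gene the adjusted p of fos was 0.127. The 9 genes had a median of -0.07. Of 10 genes of the PI3K to Akt link, 1 was lower (pik3r2, -1.46, adjusted p 8.63e-17 in limma) and 9 did not pass, with a median of -0.16, so that 1 of 10 passed beside 19.0% of all genes. The value of pik3r2 was -0.55 with acta1b alone, where its adjusted p was 0.0597. With a separate variance for each gene the adjusted p of pik3r2 was 0.0121.

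Markers of the cells that could carry such receptors were few on the array. Of 9 leukocyte markers, 2 were measured, and they went in opposite directions: btk, a kinase of B cells and myeloid cells, was lower (-0.66, adjusted p 0.000369 in limma), and faslg, the Fas ligand of cytotoxic lymphocytes, was higher. With a separate variance for each gene neither passed (adjusted p 0.109 and 0.137). The value of btk turned to 0.25 with acta1b alone, and its adjusted p was 0.385 with b2m alone (-0.17) and 0.0517 with the positive PCR control wells (-0.52). Without WT replicate 3 the adjusted p of faslg in limma was 0.0630. The summed level of btk and faslg relative to the reference genes ran from 0.0157 to 0.0200 in WT and from 0.0105 to 0.0127 in NOD1-deficient larvae, but btk made up at least 89.4% of that sum on each array, so the sum repeats the value of btk and says nothing further of leukocytes. Against btk on the same array the Ct of tlr4bb was later by 5.82 to 5.92 cycles in WT and by 7.02 to 7.71 in NOD1-deficient larvae, a difference of 1.59 cycles (exact permutation p = 0.1). The share of leukocytes in the pools was not measured, and its part in the value of tlr4bb was not tested. Of 5 skeletal muscle markers only acta1b was on the array, and its unscaled level was lower in NOD1-deficient larvae by a log2 difference of -0.61 (exact permutation p = 0.1).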

How the data were processed

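The authors deposited raw Ct of 6 arrays, 1 normalized value per genotype and a table of their own fold changes, which was not used. The deposited normalized values are linear ratios (2 to the power of minus delta Ct) made with the manufacturer's software, and were used only to find the scaling: when hprt1, nono and rpl13a served as reference and 35 was the highest Ct allowed, values computed from the raw Ct differed from them by at most 1.91e-06 on the log2 scale. Per the labels, 1000 ng of total RNA was reverse transcribed and amplified for 40 cycles with SYBR Green. Baseline and threshold settings are not given in the sources used here. GEO lists 1 sample per genotype, and the 3 columns of each were taken as biological replicates because the series text states 3. Run and plate lot are not named. Symbols and wells came from the normalized table, and 7 of 8 route assays, all but nfkb1, matched RefSeq (GRCz12tu) by accession.

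Minus delta Ct of the 84 pathway genes was fitted with limma 3.58.1 (lmFit, eBayes) in R 4.3.3, and p-values were adjusted by Benjamini-Hochberg across these 84, with 0.05 as the threshold. The prior degrees of freedom were infinite, so each gene had the same SD (0.194). The 84 genes share the arrays and the subtracted mean of the reference genes, so their errors are not independent. The pooled fit treats them as if they were, and its very small p-values should be read with those from a separate variance for each gene. Ct differences were read as log2, which assumes doubling in each cycle. Exact permutation tests were two-sided. The fit was tested on simulated data, but no outcome of that is given here and no result rests on it. The genes named were the 5 genes, the other genes of the route, genes of the other lists that passed, reference genes and the 3 nearest profiles of each gene. For genes other than tlr4bb only the nearest of the 3 is given. Markers and the genes of late Ct were also named, the latter, and the pairs of tlr4bb with btk and pdk1, after their values were seen. The members and lists were chosen with earlier results of these data known. The number of arrays limits the precision.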

Additional observations from a re-analysis of the deposited data

How the results depend on the processing

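The number of the 5 genes with an adjusted p under 0.05 was 1 (tlr4bb), beside 16 of all 84 genes. It became 3 when scaled to all 5 reference genes (22 of all 84), 2 with hprt1 alone (16), 2 with nono alone (27), 5 with acta1b alone (72), 4 with b2m alone (41), 2 with the 4 reference genes other than acta1b (16), 3 with the median Ct of the pathway genes (25), 2 with the positive PCR control wells (10) and 2 in limma with trend and robust (17). It was 0 with a mean Ct of at most 30 (16 of 82), a limit that removes tlr4bb. It was 1 with rpl13a alone (14 of all 84), a Ct ceiling of 40 (16) and a limit of 35 on the mean Ct (16). It was also 1 with a separate variance for each gene (6 of all 84) and in the 6 fits without 1 replicate (10 to 21). Directions turned for irak1 with all 5 reference genes (0.19), hprt1 alone (0.043), acta1b alone (0.82), b2m alone (0.40), the 4 reference genes other than acta1b (0.029), the median Ct (0.17), the positive PCR control wells (0.048) and without WT replicate 1 (0.012), for tirap with acta1b alone (0.58) and b2m alone (0.17), and for chuk with nono alone (-0.027). A scaling adds the same constant to each gene by construction. The log2 change of tlr4bb kept its direction and an adjusted p under 0.05 in 20 of 20 alternatives, and its highest adjusted p was 0.0204. The 20 draw on the same 6 arrays and are not independent checks, and some could not move the value of -2.26. Allowing Ct up to 40 left tlr4bb untouched, as its latest Ct was 33.97. Keeping genes with a mean Ct up to 35 kept all 84. A separate variance, trend and robust, and the replicate block alter the SE but not the log2 change. Without 1 replicate the log2 change of tlr4bb ran from -2.49 to -2.06, and that of irak1 from -0.17 to 0.012. Without 1 replicate the change between the groups in the Ct difference of tlr4bb from tirap, irak1, chuk and nfkbiab ran from 1.84 to 2.09, 2.03 to 2.33, 2.24 to 2.57 and 2.39 to 2.77.

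Arrays that carry the same number were not treated as paired. Over genes, their deviations from the group means had correlations of 0.12, 0.085 and -0.27. With 3 arrays per group, these values cannot show whether the pools were collected or run in pairs. A fit with the replicate block gave 1 of the 5 genes, beside 14 of all 84, with tlr4bb at -2.26 (adjusted p 4.35e-26 in limma).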

Other observations

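The spread of the 5 genes in WT was smaller before scaling than after it. The raw Ct of tirap in the 3 WT arrays had an SD of 0.0061 cycles, against 0.138 for its delta Ct, and that of nfkbiab had 0.0265 against 0.170. The mean of hprt1, nono and rpl13a had an SD of 0.144 cycles in WT. The raw Ct had the smaller SD for 57 of the 84 genes in WT and for 35 of 84 in NOD1-deficient larvae.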
